A study of Rattus norvegicus and Mus musculus with 18 samples.

Results

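Connexins are the proteins of gap junctions, and 7 connexin genes (Gja1, Gjb2, Gjb5, Gjb6, Gja4, Gja5 and Gjc1) were followed here together with the pannexin gene Panx1 in healing mouse skin. The 8 genes were chosen by name and found by Ensembl identifier among the 49548 genes of the mouse table, and all 8 passed the filter that left 15982 genes for testing. Total RNA of whole tissue from adult mice was measured in 6 of the 18 libraries of the series. These were 3 libraries of mouse wound epidermis and 3 of mouse wound dermis, all from skin wounds collected 1 day after the scab came off. The series compares these wounds with rat wounds, and its description ties this time in mice to hair follicle regeneration. No unwounded mouse skin was analysed here, and the labels name no strain, sex or number of animals. The rat libraries were not used here, because their gene identifiers were not paired with symbols.

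Connexins assemble in groups into a hemichannel in the cell membrane, and hemichannels of neighbouring cells dock to form a pore through which ions and small molecules pass. Different connexins mark different cells: Gja1 (Cx43) is the most widely used one, Gjb2 (Cx26) and Gjb6 (Cx30) are known from keratinocytes of hair follicles and of thickened or wounded epidermis, and Gjb5 from stratified epithelia. Gja4 (Cx37) and Gja5 (Cx40) are connexins of the vessel wall, above all of arterial endothelium, and Gjc1 (Cx45) is known from vascular smooth muscle and pericytes. Pannexins resemble connexins in the fold of the protein, but belong to another gene family. Panx1 forms channels in the membrane of single cells that release ATP.

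Hemichannels dock through 2 extracellular loops, each held in shape by 3 cysteines. The codons around the cysteines of the first loop are shown because they are what the 7 connexins share in sequence and what Panx1 lacks. They were read from the GENCODE M21 transcripts (GRCm38/mm10, coding exon, 5′ to 3′ on the gene's strand, given as + or -), and the capitals mark the 3 cysteine codons.
Gja1 chr10:56387706-56387741 +: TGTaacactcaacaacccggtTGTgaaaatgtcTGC
Gjb2 chr14:57100558-57100593 -: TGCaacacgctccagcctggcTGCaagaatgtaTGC
Gjb6 chr14:57124611-57124646 -: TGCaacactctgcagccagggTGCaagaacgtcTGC
Gjb5 chr4:127356158-127356193 -: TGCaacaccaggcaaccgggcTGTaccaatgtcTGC
Gja4 chr4:127312774-127312809 -: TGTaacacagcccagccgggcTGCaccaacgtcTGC
Gja5 chr3:97050788-97050823 +: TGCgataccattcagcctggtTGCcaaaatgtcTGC
Gjc1 chr11:102800984-102801019 -: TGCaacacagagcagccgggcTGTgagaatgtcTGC

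In each of the 7 member connexins the reading frame held this spacing once (cysteine codons, TGT or TGC, with 6 and then 3 other codons between them), and so did the spacing of the second loop (4 or 5 and then 5 codons between them). Panx1 held neither, with 0 matches to each. The first spacing occurs in 2.08% of 22011 mouse coding sequences, read in frame on the coding strand only, and the first followed by the second in 0.722% of them. Among the members the first-loop stretch was most alike in Gjb2 and Gjb6, with 30 of 36 bases identical, and least alike in Gja4 and Gja5, with 23 of 36. Over the whole coding sequence Gjb2 and Gjb6 were 66.2% identical, the highest value among the 7, and Gjb2 and Gjc1 40.3%, the lowest. Panx1 was 36.9% to 47.8% identical to the 7 in the same alignments, a range that overlaps that of the connexin pairs.

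This likeness did not extend to stretches as long as a read. Reads were 86 or 43 bases long per the labels' protocols. None of the 86-base stretches of the 8 members' principal transcripts occurred in a transcript of another gene. Of the 43-base stretches, 7 of the 3067 in Gja5 did and 0 in the other members. The locus of Gja5 overlaps other annotated genes, Gpr89 among them, and the other members overlap none.

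The genes lie on 6 chromosomes (GRCm38/mm10, all protein-coding). Gja1 (ENSMUSG00000050953) spans chr10:56377330-56402513, Gja5 (ENSMUSG00000057123) chr3:96904693-97077416, Gjc1 (ENSMUSG00000034520) chr11:102799579-102819700 and Panx1 (ENSMUSG00000031934) chr9:15002128-15045478. Gjb2 (ENSMUSG00000046352, chr14:57098600-57104702) and Gjb6 (ENSMUSG00000040055, chr14:57123303-57133611) are neighbours, 18.60 kb apart. Gja4 (ENSMUSG00000050234, chr4:127311421-127314039) and Gjb5 (ENSMUSG00000042357, chr4:127354809-127358181) are both on the minus strand of chromosome 4.

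Before the values, the labels were checked against marker genes. All 6 fibroblast, 7 endothelial and 7 mural markers were lower in epidermis. Of these, Lum, Pdgfra, Cdh5, Kdr, Cldn5, Emcn, Tie1, Tek, Myh11, Tagln, Pdgfrb, Cspg4 and Des were under 1 TPM in every epidermis library. The filter fixed their direction in advance, so they do not check the labels. The 7 suprabasal keratinocyte markers were all higher in epidermis, and so were 5 of 7 basal and 3 of 4 wound-activated ones. Of all tested genes 39.3% were lower and 17.0% higher. The dermis libraries stood apart from each other in keratinocyte transcripts: the 7 basal markers summed to 282 to 3406 TPM in dermis (6756 to 17720 in epidermis), the 7 suprabasal markers to 356 to 13293 (36365 to 76407 in epidermis), both highest in dermis replicate 2 and lowest in replicate 3. In dermis the Schwann markers summed to 8.83 to 72.9 TPM and the skeletal muscle markers to 6.28 to 29.5, both highest in replicate 3. None of the 3 T cell markers had a call. Adipocyte markers did not exceed 0.52 TPM. Depth is unknown, since TPM (transcripts scaled to the same total in each library, a level per transcript length) keeps no record of read numbers.

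Gjb2, Gjb6 and Gjb5 were 9.05 to 12.8 times higher in epidermis by group mean. The 3 vascular connexins were at 11.1 TPM or more in every dermis library and under 1 TPM in every epidermis library. Gja1 had the highest mean TPM of the members in both tissues, but in epidermis replicate 2 Gjb2 exceeded it. With limma on log2(TPM + 1), 3 of the 8 members were higher in epidermis and 3 lower at an adjusted p below 0.05. Of all 15982 genes tested 56.3% were called, 17.0% higher and 39.3% lower. Values of the 2 tissues were separate for 7 of the 8 members, 4 with epidermis above and 3 with epidermis below, beside 66.0% of all genes (20.8% above and 45.3% below). For the 3 below, which were under 1 TPM in every epidermis library, the filter fixed this separation in advance. The median log2 fold change of the members was 0.20, and that of all tested genes -0.42.

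**Figure D1:**
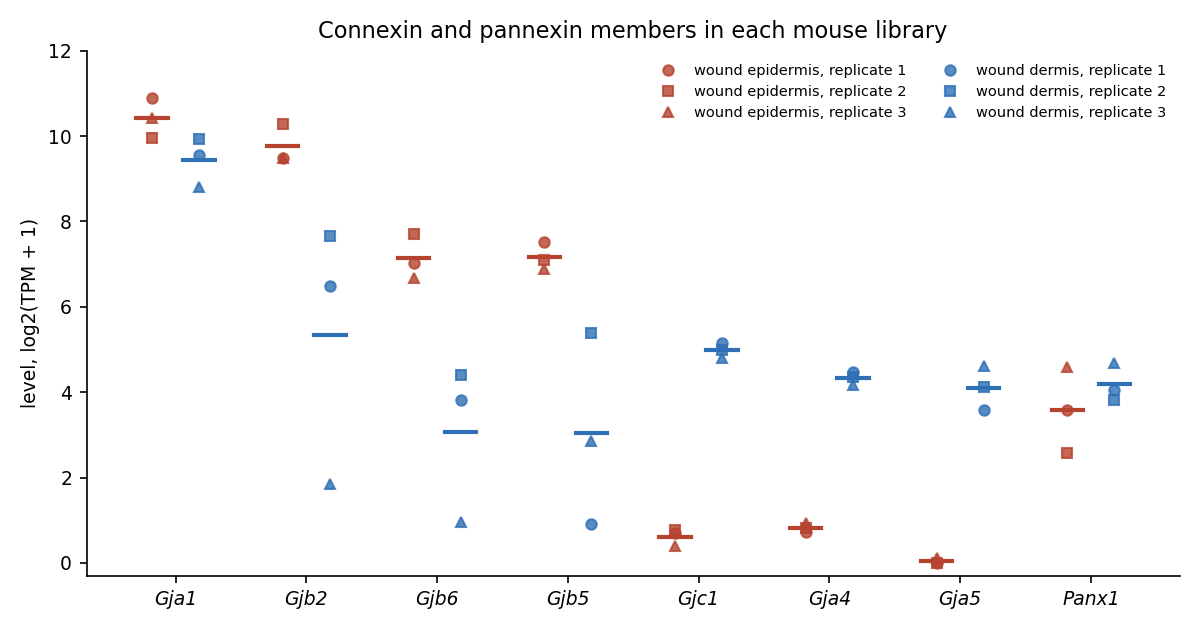
Level of each member as log2(TPM + 1) in the 3 wound epidermis libraries (red) and 3 wound dermis libraries (blue) of mouse; symbols mark the replicate number and bars the group mean. Gja1 is high in both tissues, Gjb2, Gjb6 and Gjb5 are spread widely in dermis, Gjc1, Gja4 and Gja5 lie under 1 TPM in epidermis, and Panx1 overlaps.

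Gja1 stood at 1906, 999 and 1370 TPM in epidermis replicates 1, 2 and 3 and at 755, 972 and 446 TPM in dermis replicates 1, 2 and 3. All epidermis libraries lay above all dermis libraries, but epidermis replicate 2 and dermis replicate 2 were close. Group means were 1425 ± 456 and 724 ± 264 TPM (SD, n = 3 each), epidermis first. The log2 fold change of 1.00 ± 0.37 (SE) did not pass (limma adjusted p = 0.054). It passed with median-of-ratios scaling (1.47, adjusted p = 0.00986), without wound dermis replicate 2 (1.24, adjusted p = 0.030), without wound epidermis replicate 2 (1.23, adjusted p = 0.041) and without the mean-variance trend (adjusted p = 0.049), and stood at 0.52 under quantile normalization (adjusted p = 0.25).

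Gjb2, whose connexin is low in resting epidermis and known to be induced in wounds and psoriasis, stood at 720, 1254 and 717 TPM in epidermis. In dermis replicates 1, 2 and 3 it stood at 88.9, 202 and 2.59 TPM. The groups did not overlap, and the highest and lowest dermis libraries lay further apart as a ratio than those of epidermis, though not in TPM. Means were 897 ± 309 and 97.9 ± 100.1 TPM (SD, n = 3 each), a ratio of 9.16. The log2 fold change, a difference of mean log2 values and not the log of that ratio, was 4.42 ± 1.36 (SE, adjusted p = 0.027). Wound dermis replicate 3 decided its size: without it the log2 fold change was 2.68 (adjusted p = 0.0074). The call was lost when wound epidermis replicate 1, 2 or 3 was left out (adjusted p = 0.0575, 0.0816 and 0.054) and without the filter on low values (adjusted p = 0.0655).

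Gjb6, the neighbour of Gjb2 and a gene of inherited ectodermal dysplasia in people, followed the same order of libraries at a lower level. It stood at 130, 206 and 101 TPM in epidermis and at 13.1, 20.1 and 0.93 TPM in dermis. In both tissues replicate 2 was the highest and replicate 3 the lowest, as for Gjb2 (in epidermis, Gjb2 was at 717 TPM in replicate 3 and 720 in replicate 1). The log2 fold change was 4.08 ± 0.85 (adjusted p = 0.0055), from means of 146 ± 55 and 11.4 ± 9.7 TPM (SD, n = 3 each), a ratio of 12.8. Gjb2 exceeded Gjb6 by 5.52 to 7.13 times in the epidermis libraries and by 2.78 to 10.1 times in the dermis libraries.

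Gjb5 (Cx31.1), a connexin of stratified epithelium, was at the level of Gjb6 in epidermis, with 182, 136 and 117 TPM. In dermis it stood at 0.88, 41.0 and 6.22 TPM. Dermis replicate 2 lay closest to the epidermis libraries, and replicate 1 farthest from them. The log2 fold change was 4.11 ± 1.00 (adjusted p = 0.010), from means of 145 ± 34 and 16.0 ± 21.8 TPM (SD, n = 3 each). It passed with each library left out in turn, at 3.04 to 5.28.

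The dermis libraries ordered the 3 beta connexins differently. In dermis replicate 1, Gjb2 and Gjb6 were at 9.91% and 8.99% of their epidermis means, while Gjb5 was at 0.61%. In dermis replicate 3 the order was reversed, with Gjb2 at 0.29%, Gjb6 at 0.64% and Gjb5 at 4.29%. In dermis replicate 2 they were at 22.5%, 13.8% and 28.3%.

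Keratinocyte markers differed between the same libraries. In dermis replicate 1 the 4 wound-activated markers were at a median of 17.3% of their epidermis means and the 7 basal markers at 16.2%, but the 7 suprabasal markers at 1.35%. The basal markers spread widely in that library, from 0.59% (Krt15) to 99.0% (Itga6), and the suprabasal ones from 0.20% to 4.25%. Itga6 and Itgb4 had no call between the tissues. In dermis replicate 2 these medians were 18.1%, 44.8% and 23.1%, and in replicate 3 they were 1.29%, 3.43% and 0.54%. Krt16, a keratin of activated keratinocytes, was at 12.6% in dermis replicate 1, and Krt10, a keratin of the suprabasal layers, at 0.90%. No marker of the 3 lists was at 0 in any dermis library. The part of keratinocytes in the dermis values of Gjb2, Gjb6 and Gjb5 was not tested, and in bulk tissue fewer cells of a type and less RNA per cell cannot be told apart.

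**Figure D2:**
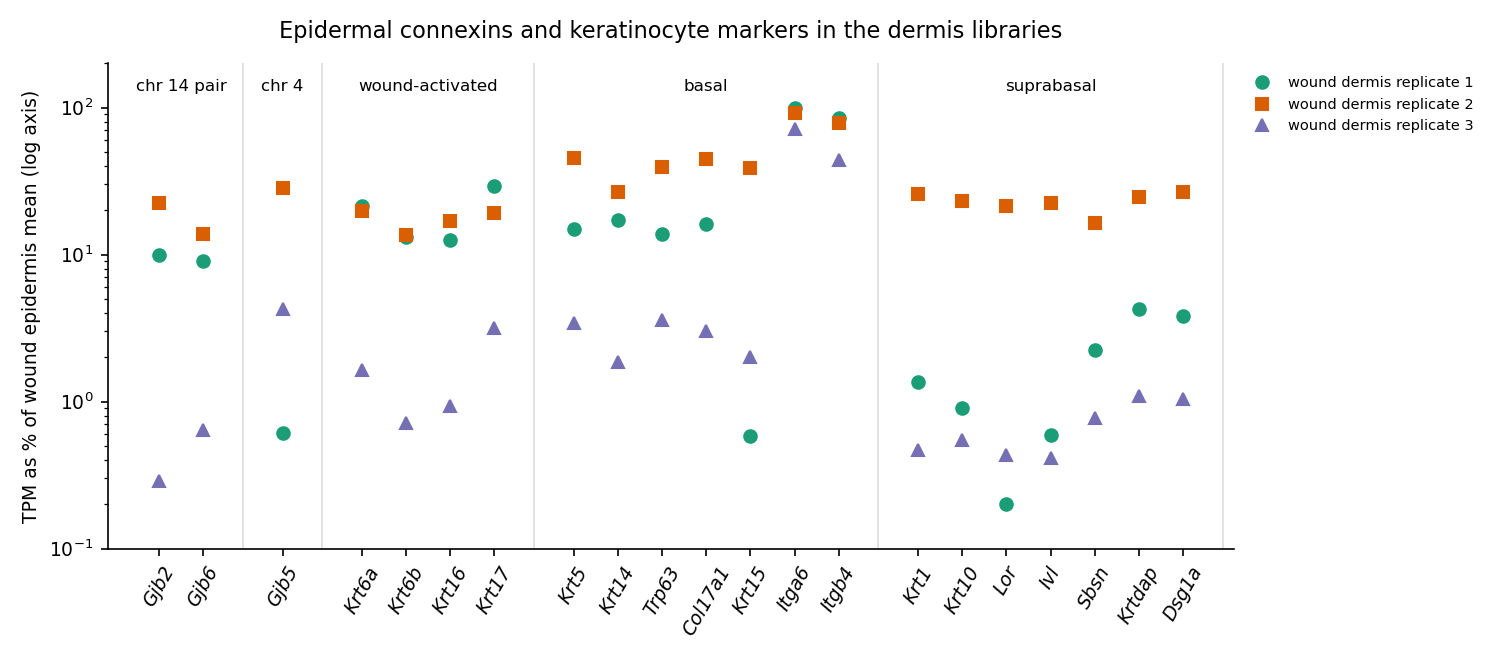
Level of epidermal connexins and of all wound-activated, basal and suprabasal keratinocyte markers in each mouse wound dermis library, as percent of the gene's wound epidermis mean (log axis). In replicate 1, Gjb2 and Gjb6 (chromosome 14) lie at 9.91% and 8.99% and Gjb5 (chromosome 4) at 0.61%; in replicate 2 the 3 lie between 13.8% and 28.3%.

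The 3 vascular connexins were lower in epidermis, with no overlap between the tissues. All 3 were under 1 TPM in every epidermis library, so they passed the filter only through the 3 dermis libraries. Their direction and the lack of overlap were thus fixed by the filter, and only the levels add to it. In dermis replicates 1, 2 and 3 Gja4 stood at 21.1, 19.3 and 16.9 TPM, and in epidermis at 0.66, 0.75 and 0.91. It was lower in epidermis, with a log2 fold change of -3.50 ± 0.19 (SE, adjusted p = 1.9e-05) and a dermis mean 24.7 times the epidermis mean. Dermis levels of Gjc1 were 34.6, 30.8 and 26.7 TPM, and epidermis levels 0.62, 0.70 and 0.31 TPM. Its log2 fold change was -4.36 ± 0.21 (adjusted p = 1.3e-05), with a ratio of means of 56.4.

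Gja5 stood at 11.1, 16.5 and 23.3 TPM in dermis replicates 1, 2 and 3. In epidermis it was listed at 0 in replicates 1 and 2 and at 0.08 TPM in replicate 3. Its log2 fold change was -4.07 ± 0.28 (adjusted p = 3.8e-05). It depended on the pseudocount, and stood at -7.07 with a pseudocount of 0.1 (Gja4 at -4.46 and Gjc1 at -5.63). In dermis the order of the libraries was opposite to that of Gja4: Gja5 was lowest in replicate 1 and highest in replicate 3. The ratio of Gja4 to Gja5 was 1.91, 1.17 and 0.72 in replicates 1, 2 and 3.

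Endothelial and mural markers were set beside these genes. Cdh5, the cadherin of endothelial junctions, had 28.7, 21.8 and 19.8 TPM in the dermis libraries and 0.11 TPM or less in those of epidermis. Per unit of Cdh5 in the dermis libraries, Gja4 stood at 0.74 to 0.89, Gjc1 at 1.204 to 1.41 and Gja5 at 0.38 to 1.18, the last with the widest range. Per unit of the mural marker Pdgfrb, Gjc1 stood at 1.05 to 1.71 there. The 4 arterial endothelial markers (Efnb2, Hey1, Sox17 and Dll4) were all lower in epidermis, but Efnb2 kept 61.2% to 67.4% of its dermis mean there. Hey1, Sox17 and Dll4 were under 1 TPM in every epidermis library, so the filter fixed their direction. None of the 4 was highest in dermis replicate 3, where Gja5 was highest (Sox17 stood at 19.4, 19.8 and 16.4 TPM in replicates 1, 2 and 3). The 7 endothelial markers summed to 237 to 376 TPM in dermis and 3.61 to 10.2 TPM in epidermis, with Cldn5 at 0 in epidermis replicates 1 and 2 and Emcn at 0 in replicate 2. The 7 mural markers summed to 3673 to 7400 and 4.47 to 28.4 TPM, with Myh11 at 0 in epidermis replicates 1 and 2. Most of the dermis sum was Rgs5, at 3448 to 7141 TPM. Gja4 kept 3.45% to 4.76% of its dermis mean in the epidermis libraries and Gjc1 1.011% to 2.28%, where Cdh5 kept 0.21% to 0.47% and Pecam1, an adhesion molecule of endothelium, 1.89% to 9.13%. The part of vessel cells in the 3 connexins was not tested.

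Panx1 was the member with overlapping groups. Epidermis libraries had 10.99, 4.93 and 23.1 TPM, and dermis libraries 15.7, 13.1 and 24.8 TPM. The log2 fold change of -0.61 ± 0.51 (SE) did not pass (adjusted p = 0.34), and it ranged from -1.11 without wound epidermis replicate 3 to -0.10 without wound epidermis replicate 2. The spread between epidermis libraries was larger than the difference between tissues. The other pannexins, Panx2 and Panx3, did not exceed 0.10 TPM.

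Within epidermis the order of mean TPM was Gja1, Gjb2, Gjb6, Gjb5, Panx1, Gja4, Gjc1 and Gja5. Gja1 overlapped with Gjb2, Gjb6 with Gjb5 and Gja4 with Gjc1 over the 3 libraries, while the other neighbours in this order did not overlap. Within dermis the order was Gja1, Gjb2, Gjc1, Gja4, Panx1, Gja5, Gjb5 and Gjb6. Only Gja1 against Gjb2 and Gjc1 against Gja4 did not overlap there.

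Of the other connexins, Gjb1 was higher in epidermis. Gjb1 (Cx32), best known from liver and myelin, reached 15.01 TPM in epidermis replicate 3 and 3.51 TPM or less elsewhere (1.95 ± 0.55, adjusted p = 0.019). Without wound epidermis replicate 3 its log2 fold change was 1.29, and its call was lost when wound dermis replicate 1 or 3 was left out (adjusted p = 0.0624 and 0.0701) or the filter was dropped (adjusted p = 0.0515). Below the filter, Gjc3 reached 1.93 TPM and Gje1 1.14 TPM, both in dermis.

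**Figure D3:**
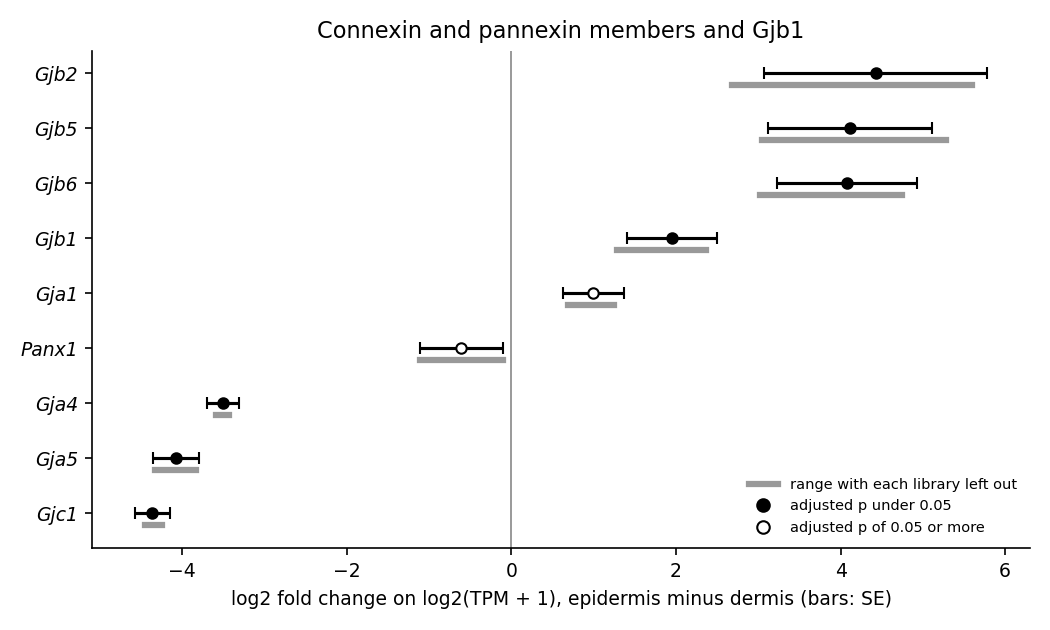
Log2 fold change on the log2(TPM + 1) scale, wound epidermis minus wound dermis, for the 8 members and Gjb1; points with SE bars are filled where the adjusted p was under 0.05, and grey bars span the values with each of the 6 libraries left out. Gjb2, Gjb5 and Gjb6 have long bars and the vascular connexins, which lie under 1 TPM in epidermis, short ones. Gja1 and Panx1 did not pass.

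TPM is per transcript length, so the connexins of a library can be added. The 20 listed connexin genes summed to 3759, 3242 and 3065 TPM in epidermis replicates 1, 2 and 3 and to 934, 1527 and 533 TPM in dermis. Summed connexin TPM, a share of each library's transcripts and not an amount per tissue, was higher in every epidermis library than in any dermis library. Gja1 made up 30.8% to 50.7% of it in epidermis and 63.7% to 83.7% in dermis. Gjb2 made up 19.2% to 38.7% in epidermis, and 9.52%, 13.2% and 0.486% in dermis replicates 1, 2 and 3. Gjb6 held 3.28% to 6.37% and Gjb5 3.81% to 4.85% of the epidermal sum. Gja4, Gja5 and Gjc1 together made up 4.36% to 12.5% in dermis and at most 0.045% in epidermis. The 7 member connexins covered 75.2% to 80.1% of the epidermal sum and 85.3% to 99.0% of the dermal one.

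**Figure D4:**
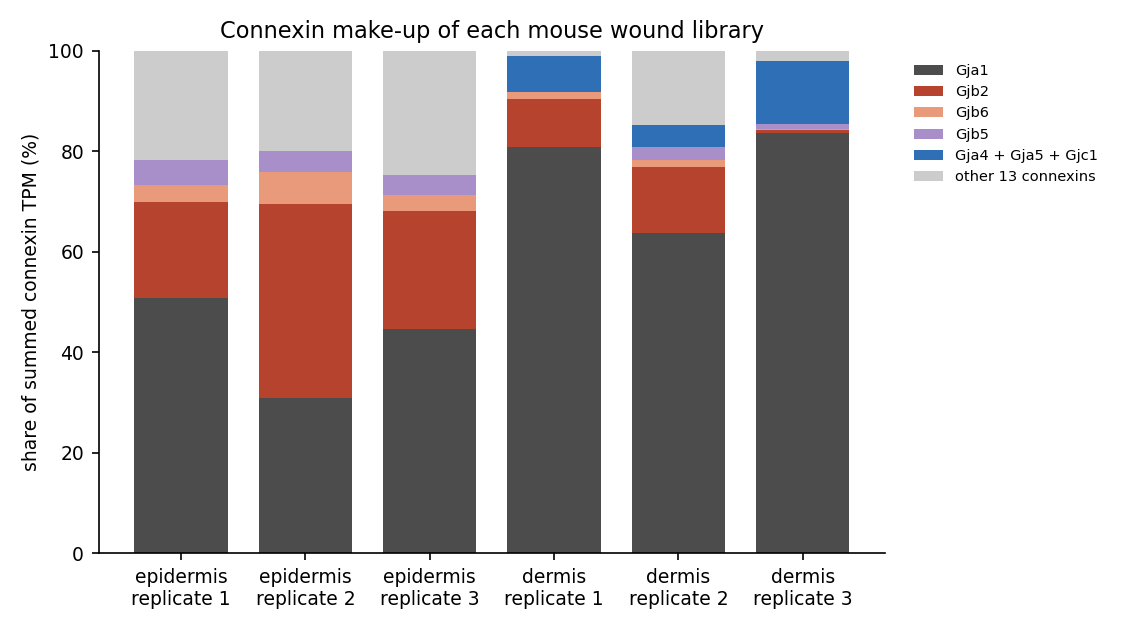
Share of the summed TPM of 20 connexin genes held by the 7 members and by the other 13 together (light grey), one bar per mouse library. Gja1 (dark grey) is the largest share in all but epidermis replicate 2, where Gjb2 (38.7%) exceeds it (30.8%); the vascular connexins (blue) are visible only in dermis.

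Epidermis replicate 2 differed in its balance. There Gjb2 exceeded Gja1 by 1.26 times, while in replicates 1 and 3 the ratio of Gjb2 to Gja1 was 0.38 and 0.52. The same library had the highest sum of the 7 suprabasal markers (76407 TPM, against 55346 and 36365) and the lowest of the 7 basal markers (6756 TPM, against 9795 and 17720). The part of these marker levels in the balance was not tested.

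For each member the 3 genes with the most similar profile were sought. The measure was the root mean square distance between log2(TPM + 1) values over the 6 mouse libraries, each gene centred on its mean, so that 0 is an identical profile. All libraries share the 2 groups, and 10 TPM in the higher group was required. Nearest to Gjb2 was Sprr1b (distance 0.13), a cornified envelope precursor of stressed epidermis, then the cystatin-family genes Stfa2 (0.34) and Csta1 (0.40). Sprr1b stood at 2102, 4188 and 2426 TPM in epidermis and 318, 607 and 8.81 TPM in dermis, the same order of libraries as Gjb2 in dermis. Nearest to Gjb6 were Pglyrp4 (0.22), Atp13a4 (0.27) and Sprr1a (0.30), and nearest to Gjb5 were Calm5 (0.29), Skint9 (0.30) and Orm1 (0.34). Calm5, at 0.48 TPM in dermis replicate 1 and 53.4 in replicate 2, showed the low replicate 1 of Gjb5. Sprr1b and Calm5 were picked for likeness over these same libraries, so a shared order follows from the choice.

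Nearest to Gja1 were Znrf3 (0.15), which limits Wnt receptors at the membrane, Pmaip1 (0.16), a cell death gene, and Cd109 (0.18). Nearest to Gjc1 were Mef2c (0.15), Mmrn2 (0.16) and Cdh5 (0.16), the last 2 being endothelial genes. Of these only Mef2c was kept with a pseudocount of 0.1, and all 3 were under 1 TPM in every epidermis library. Gja4 lay nearest to Sncaip (0.076), Zfp423 (0.089) and Calcrl (0.092), and Gja5 to St6galnac3 (0.066), Podnl1 (0.12) and Pdgfd (0.15). Panx1 lay nearest to Coq7 (0.19), Rfc4 (0.20) and Tle6 (0.22). The genes named for Gja4 and Gja5 were all at 0.34 TPM or less in epidermis, and with a pseudocount of 0.1 0 of the 3 genes of either was kept.

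The scaffold, trafficking and adhesion partners of gap junctions were called in both directions. Of 14 listed, all tested, 4 were higher and 5 lower in epidermis (17.0% and 39.3% among all genes), with a median log2 fold change of -0.08 beside -0.42 for all genes. Tjp1, the ZO-1 scaffold that binds the tail of Cx43, did not pass (7.65 to 13.7 TPM over all 6 libraries, adjusted p = 0.63). Its relative Tjp3 (2.78) was higher in epidermis, as were Cdh1 (3.14), the cadherin of epithelia, and Ezr (2.45), a membrane linker. Lower were Dbn1 (-4.97), an actin binder that holds Cx43 at the membrane, the caveola protein Cav1 (-4.94), the mesenchymal cadherin Cdh2 (-3.43), the ubiquitin ligase Nedd4 (-2.86), which acts on Cx43 turnover, and the kinase Src (-1.09). Dbn1 and Cdh2 were under 1 TPM in every epidermis library, so the filter fixed their direction in advance. Src did not pass under quantile normalization (-0.36, adjusted p = 0.21). Ctnnb1, Cnst, Ubqln4 and Csnk1d did not pass at -0.52, 0.39, 0.18 and -0.004, and Cnst and Ubqln4 passed with median-of-ratios scaling (0.80 and 0.61, adjusted p = 0.0339 and 0.0221) and quantile normalization (1.012 and 0.67, adjusted p = 0.0108 and 0.0161).

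Receptors and enzymes of extracellular nucleotides, on which ATP released through Panx1 or connexin hemichannels acts, were called in both directions. Of 22 listed 17 were tested, and 5 were higher and 7 lower in epidermis, beside 17.0% higher and 39.3% lower among all genes. Their median log2 fold change was -0.36, beside -0.42 for all genes, so the number lower and the median lay near the background. The ATP-degrading enzyme Entpd1 averaged 98.9 ± 14.2 TPM in dermis against 3.83 ± 1.42 in epidermis (SD, n = 3 each; -4.40, adjusted p = 2.2e-05). P2ry6 (-3.45), a receptor for UDP, P2rx4 (-2.38), an ATP-gated channel, and P2ry12 (-1.85) were lower too. P2ry6, P2ry12 and Adora2a, also counted as lower, were under 1 TPM in every epidermis library, so the filter fixed their direction in advance. The 5 macrophage markers were also lower, with sums of 54.4 to 74.9 TPM in epidermis and 494 to 844 TPM in dermis and no marker at 0. The direction of the macrophage marker Adgre1, under 1 TPM in every epidermis library, was fixed by the filter too. The part of macrophages in the values of these receptors and enzymes was not tested. Higher in epidermis were Adora2b (1.87), an adenosine receptor, at 15.3 to 29.1 TPM against 2.82 to 7.64 TPM, and the low-level receptors P2ry1 (1.79), P2rx2 (1.15), P2ry4 (1.10) and P2ry2 (0.69). The calls of P2ry1, P2rx2 and P2ry2 were lost in 4, 4 and 5 of the 6 fits that left out 1 library. P2rx2 also lost its call with a pseudocount of 0.1 (2.62, adjusted p = 0.058), without the filter (adjusted p = 0.0896) and with the replicate block (adjusted p = 0.0616), and P2ry2 without the filter (adjusted p = 0.0775). Without wound dermis replicate 1, for example, their adjusted p was 0.0617, 0.142 and 0.112. Nt5e (0.19), P2rx3 (0.39), Adora3 (-0.07), P2rx5 (-0.36) and Entpd2 (-0.58) did not pass. P2rx3 passed under quantile normalization (1.12, adjusted p = 0.00572), and Entpd2 without wound dermis replicate 1 (-1.05, adjusted p = 0.0437).

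Scaling moved the median of all genes. Over all tested genes it was -0.42 as deposited, -0.04 with median-of-ratios scaling and 0.08 with quantile normalization. Of the called genes 30.2%, 47.1% and 52.8% were higher in epidermis in these fits. Gjb2, Gjb5, Gjb6, Gja4, Gja5 and Gjc1 kept their direction and their call in all 3, Panx1 had no call in any of them, and Gja1 passed only with median-of-ratios scaling.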

How the data were processed

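Libraries were made from total RNA by SMART-seq2, which amplifies full-length cDNA, per the labels' protocols. The deposited values are TPM, 1 column per library, computed by the authors. Bowtie 1.0.0, RSEM 1.2.31, mm10 and Rnor_6.0 are named per the submitters' processing notes; annotation and settings: not given in the sources used here. Depth is unknown, so no counting interval is given. Of 49548 mouse identifiers 49289 were paired with a symbol by GENCODE M21.

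The 15982 genes that reached 1 TPM in 3 or more of the 6 mouse libraries were tested as log2(TPM + 1), wound epidermis minus wound dermis, with limma 3.58.1 in R 4.3.3, mean-variance trend, two-sided, Benjamini-Hochberg over all tested genes, threshold 0.05. For genes near or under 1 TPM in a tissue this pseudocount makes fold changes too small and narrows the spread between libraries. Log2 fold changes are differences of mean log2 values, while ratios are of mean TPM, so they can rank genes differently. Whether libraries are separate animals is not stated, and the p-values cover only the spread between them, which may be technical. On simulated data of 15982 genes, only 50 were changed at each size. There the fit recovered 92% of those changed by 4, 66% by 2 and 16% by 1 on the log2 scale, with 5 false calls. Whether these rates hold in the measured data, where 56.3% of genes were called, was not tested.

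The members and gene lists were chosen with earlier results of these data known. Named genes were the members, other connexins or pannexins reaching 1 TPM (some items are not reported here), up to 4 members per pathway list with the smallest adjusted p, members of those lists without a call or against the majority, and the 3 genes nearest to each member. Marker genes are given as lists, with examples, Src and Adora2a chosen after their values were seen. The planned comparison of protein sequences used coding sequences of principal GENCODE transcripts instead, aligned globally.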

Additional observations from a re-analysis of the deposited data

How the results depend on the processing

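Alternatives were other pseudocounts, filters and scalings, no 50 most abundant genes, limma without trend, a replicate block and leaving out each library. None reversed a member. Gja1 gained its call under median-of-ratios scaling (1.47), without trend (1.00) and, over the fits without 1 library (0.68 to 1.24), without wound dermis replicate 2 or wound epidermis replicate 2. Gjb2 lost its call without the filter (4.42) and without wound epidermis replicate 1, 2 or 3; over all 6 fits without 1 library it ranged from 2.68 to 5.59. Genes higher in epidermis numbered 4333 with median-of-ratios scaling and 4694 with quantile normalization, against 2721. Without 1 library 5288 to 8546 genes were called in all and 3256 to 6406 lower, and 3 to 6 members in all and 0 to 3 lower. The 0 came without any 1 wound dermis library, since the filter then dropped Gja4, Gja5 and Gjc1. With the tested genes held fixed, chosen after seeing the data, 7415 to 8714 genes, 5 to 7 members in all and 3 lower members were called; Gja1 passed without wound dermis replicate 2 (1.24) or wound epidermis replicate 2 (1.23), and Gjb2 failed without wound epidermis replicate 1 (4.56), 2 (4.16) or 3 (4.56).

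Same-numbered libraries deviated together at correlations of -0.135, 0.0859 and 0.189, so the numbers were not taken as pairs. With the replicate block 8404 genes and 6 members were called, against 8996 and 6, and not every library correlated best with its own number. Among the 7 member connexins alone, epidermal shares were 54.2% for Gja1, 5.50% for Gjb5 and 0.030% for Gja4. With a pseudocount of 0.1, 1 of the 3 nearest genes of Gjb2, Gjb5 and Gjc1 and 0 of those of Gja4 and Gja5 were kept. Signs of genes without a call turned under median-of-ratios scaling (Tjp1 0.27, Csnk1d 0.46, Adora3 0.28), under quantile normalization (Tjp1 0.36, Csnk1d 0.19, P2rx5 0.47, Adora3 0.71, Entpd2 0.20) and without 1 library (Csnk1d -0.13 to 0.17, with 0.16 as the other positive value, Nt5e -0.21 to 0.43, Adora3 -0.35 to 0.13, with 0.0083 as the other positive value). The cause of these changes was not tested. Depth is unknown, so values under 1 TPM carry an unknown error.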
